A study of Rattus norvegicus with 12 samples.

Results

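Expression of 8 genes of the NF-kB pathway and of inflammation was described in the livers of male Wistar rats. The genes were taken from the deposited table of 34194 gene IDs by their rat Ensembl IDs, and all 8 IDs were found. They were Nfkb1 (ENSRNOG00000023258), Nfkbia (ENSRNOG00000007390), Tlr4 (ENSRNOG00000010522), Icam1 (ENSRNOG00000020679), Vcam1 (ENSRNOG00000014333), Ccl2 (ENSRNOG00000007159), Il1b (ENSRNOG00000004649) and Cd68 (ENSRNOG00000037563). The rats were allotted to 4 groups of 12, and 3 livers picked at random from each group were sequenced at week 20, giving 12 libraries. The paper's counts of liver lesions covered fewer than 12 rats in the NDEA and NDEA+FYT groups, and 12 in each of the others. Control rats were injected with saline and drank water. NDEA rats were injected intraperitoneally with 25 mg/kg of N-nitrosodiethylamine (NDEA), a chemical that produces liver tumors in rodents, with 2 injections per week over weeks 2 to 9, and had water to drink. NDEA+CFT-1 rats received the same injections and drank an infusion of CFT-1 tea, a cultivar rich in epigallocatechin-3-gallate, and NDEA+FYT rats received them with an infusion of the common green tea Fuyun6 (FYT) for the 20 weeks. All 4 groups were of one strain and sex, and whole liver tissue was measured, so fewer cells of a type and less RNA per cell cannot be told apart. The comparisons asked how the inflammatory genes differed after NDEA, and how the livers of rats given either tea differed from those given NDEA alone.

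NF-kB is a family of transcription factors kept in the cytoplasm by inhibitor proteins of the IkB family. Receptors such as Tlr4, the receptor for bacterial lipopolysaccharide, trigger the breakdown of the inhibitor, and the freed factor enters the nucleus and turns on genes of adhesion molecules, chemokines and cytokines as well as the gene of its own inhibitor. In the liver the pathway is active in resident macrophages, endothelial cells and hepatocytes, and it is known for its part in injury and regeneration. Nfkb1 encodes the p105 precursor of the p50 subunit, and Nfkbia encodes the inhibitor IkB-alpha, whose transcript is a widely used readout of recent NF-kB activity. Icam1 and Vcam1 encode adhesion molecules that bind leukocytes to endothelium, Ccl2 encodes a chemokine that attracts monocytes, Il1b encodes the cytokine interleukin-1 beta, and Cd68 encodes a lysosomal protein abundant in macrophages.

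NF-kB dimers bind a short DNA motif of 10 bases, the kB consensus, and the promoters of the genes were searched for it on both strands. RefSeq promoter windows of the GRCr8 build, 250 bases before to 50 bases after the annotated start, were matched by symbol for 7 of the 8 genes, and Ccl2 was not matched. The kB consensus was found in the windows of 3 of the 7 genes, Nfkb1, Nfkbia and Vcam1, and in 4.18% of all 33469 rat windows. The stretch of Vcam1 matched on both strands. A search chosen after the sequences had been seen found the 9 bases GGAATTTCC, or GGAAATTCC on the other strand, in the windows of Nfkb1, Nfkbia and Icam1, and in 0.332% of all windows. In Nfkb1 and Nfkbia these 9 bases lie inside the kB match, whereas the copy in Icam1 falls outside the consensus. The 250 bases before the start are shown for Nfkbia (chr6:78597073-78597322, minus strand), Vcam1 (chr2:206742784-206743033, minus strand) and Icam1 (chr8:27829595-27829844, plus strand), because their matches lie there. For Nfkb1, whose match begins 4 bases after the start, 30 bases around it are shown (chr2:226805439-226805468, minus strand). Each is written 5′ to 3′ on the strand of the gene, and capitals mark the kB consensus, or in Icam1 the 9 bases alone.
Nfkbia: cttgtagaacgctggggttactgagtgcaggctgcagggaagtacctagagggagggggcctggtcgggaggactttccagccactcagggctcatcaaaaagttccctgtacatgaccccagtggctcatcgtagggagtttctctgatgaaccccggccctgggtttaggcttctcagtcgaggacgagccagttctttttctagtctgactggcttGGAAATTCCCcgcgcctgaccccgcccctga
Vcam1: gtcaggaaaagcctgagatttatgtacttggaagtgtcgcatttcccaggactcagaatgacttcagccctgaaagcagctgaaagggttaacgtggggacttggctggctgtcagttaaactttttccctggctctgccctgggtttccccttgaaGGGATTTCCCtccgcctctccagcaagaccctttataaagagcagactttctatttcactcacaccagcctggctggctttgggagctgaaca
Icam1: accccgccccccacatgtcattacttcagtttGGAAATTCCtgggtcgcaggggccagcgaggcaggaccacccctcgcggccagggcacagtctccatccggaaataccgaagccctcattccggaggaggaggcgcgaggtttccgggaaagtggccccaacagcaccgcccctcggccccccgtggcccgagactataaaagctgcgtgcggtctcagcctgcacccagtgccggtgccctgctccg
Nfkb1: gacgtcagtGGGAATTTCCagccaggaagt
A match of letters describes the window and is not a measured binding site.

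Expression is given as FPKM, fragments normalised to the length of the transcript and to the size of the library, as deposited by the authors. FPKM is a level per length, so levels of different genes can be set side by side. Whole fragments could be recovered from the deposited values, and the libraries held an estimated 15495482 fragments (NDEA replicate 1) to 25718747 (NDEA+CFT-1 replicate 1). NDEA replicate 1 stood apart from the other libraries. Its median-of-ratios factor, the typical level of a gene in that library relative to the other libraries, was 1.404, against 0.771 to 1.12 in the other 11. In the deposited values 49.4% of the 11854 genes tested (those averaging 1 FPKM or more) had their highest level in this library, and so did all 8 inflammatory genes. After division by the factors this share was 20.0%, and 5 of the 8 genes (Nfkb1, Tlr4, Vcam1, Ccl2 and Cd68) remained highest in this library. Differences are therefore given as deposited and after this scaling, and most of them also without NDEA replicate 1. At the other end, Control replicate 3 (0.771) and NDEA+CFT-1 replicate 2 (0.819) had the lowest factors.

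Over the 12 libraries the most abundant of the 8 transcripts was Nfkbia, with a mean of 38.9 FPKM. Icam1 followed with 18.8, Cd68 with 13.4 and Nfkb1 with 7.45. The cytokine, chemokine, receptor and second adhesion molecule were near the low end, with means of 2.81 FPKM for Il1b, 2.49 for Vcam1, 1.26 for Ccl2 and 0.488 for Tlr4. Tlr4 was the only gene below the limit of a mean FPKM of 1 that was set for the fit across genes. Ccl2 passed the limit only through NDEA replicate 1, since its mean over the other 11 libraries was 0.876 FPKM. The fragments behind a value numbered 719 to 2218 per library for Nfkbia and 5 to 71 for Ccl2. Counting error alone is therefore wide for Ccl2: the 5 fragments in Control replicate 1 allow 1.62 to 11.7 (exact Poisson 95% interval), an interval that covers counting error only.

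**Figure D1:**
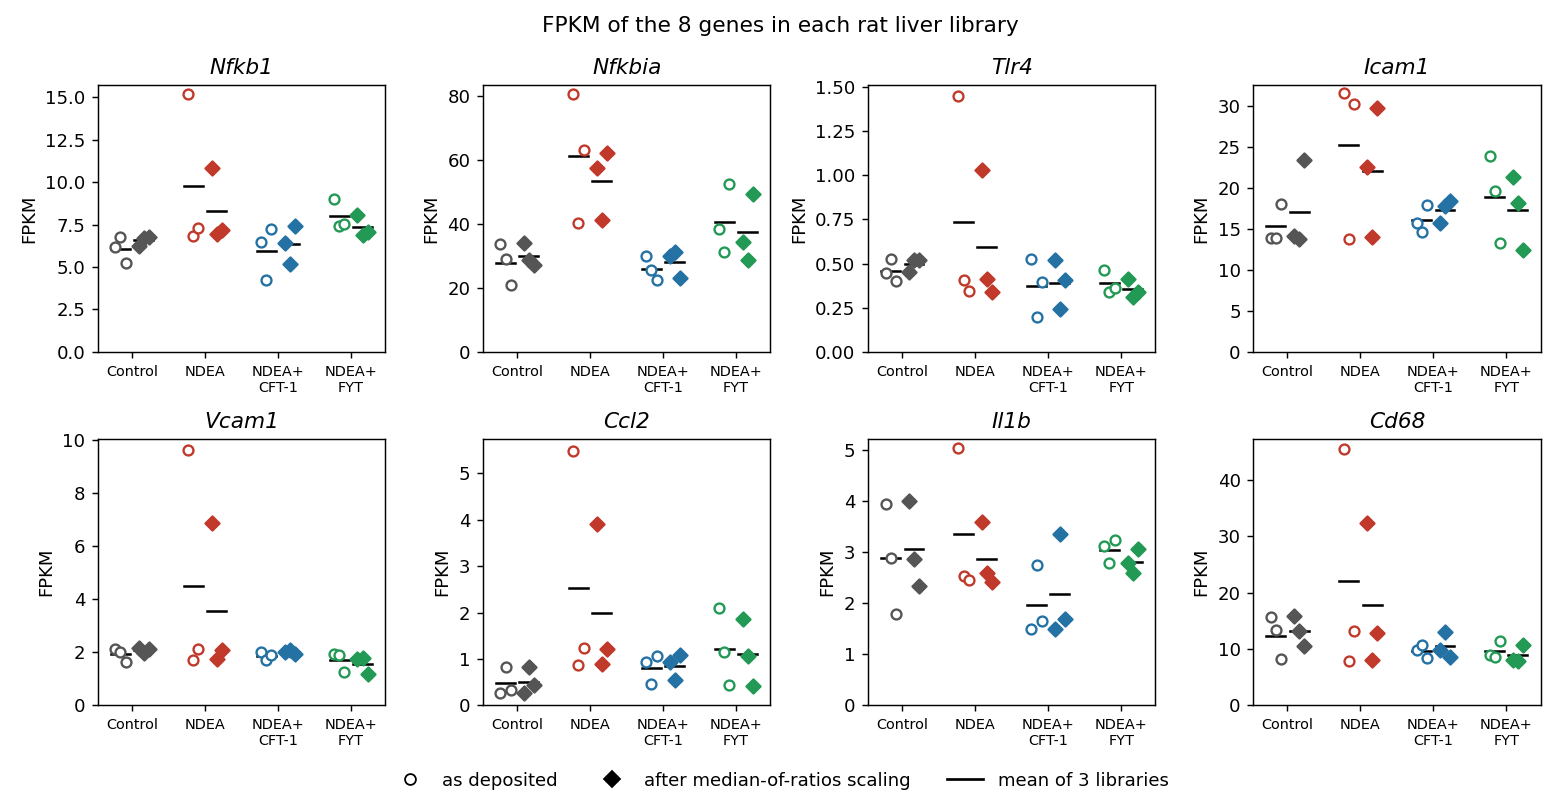
FPKM (vertical axes, from 0) of each of the 8 genes in the 12 libraries, by group. Open circles are deposited values, filled diamonds are values after median-of-ratios scaling, and bars are means of 3 libraries. One NDEA library lies far above the rest for Tlr4, Vcam1, Ccl2 and Cd68, whereas for Nfkbia all 3 NDEA libraries lie above the Control and NDEA+CFT-1 libraries.

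The inhibitor gene Nfkbia showed the clearest separation of groups. Its deposited levels were 33.6, 28.9 and 20.8 FPKM in Control (mean 27.8 ± 6.44, SD, n = 3) and 80.5, 40.3 and 63.2 FPKM in NDEA (61.3 ± 20.1). The levels were 29.96, 25.5 and 22.5 FPKM in NDEA+CFT-1 (26.0 ± 3.76) and 38.5, 31.2 and 52.4 FPKM in NDEA+FYT (40.7 ± 10.8). Every NDEA library was above every Control and every NDEA+CFT-1 library, whereas NDEA+FYT overlapped with NDEA. The order of the group means was NDEA, NDEA+FYT, Control and NDEA+CFT-1, and the latter pair overlapped widely.

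The NDEA mean of Nfkbia was 2.21 times the Control mean. On the log2(FPKM + 1) scale the difference was 1.09 (SE 0.27, 95% interval 0.49 to 1.69). After Benjamini-Hochberg adjustment over the 11854 genes tested it did not pass the threshold (adjusted p = 0.524). The NDEA+CFT-1 mean was 0.424 times that of NDEA, with a log2 difference of −1.16 (SE 0.27, interval −1.76 to −0.56, adjusted p = 0.326). For NDEA+FYT the mean was 0.664 times that of NDEA, and the log2 difference was −0.56 (interval −1.16 to 0.042, adjusted p = 0.9996 in limma). Between NDEA+CFT-1 and NDEA+FYT the log2 difference was −0.61 (interval −1.20 to −0.0073, adjusted p = 0.896), and the libraries of the 2 groups did not overlap as deposited. The moderated F test of limma over the 4 groups at once gave an adjusted p of 0.791.

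Scaling reduced these differences of Nfkbia but kept their direction. The scaled levels were 34.1, 28.6 and 27.0 in Control, 57.3, 41.2 and 62.1 in NDEA, 29.9, 31.1 and 23.1 in NDEA+CFT-1, and 34.5, 28.9 and 49.3 in NDEA+FYT. NDEA remained above Control and NDEA+CFT-1 in every library, and NDEA replicate 3 rather than replicate 1 was the highest. The scaled log2 difference was 0.80 for NDEA against Control (interval 0.31 to 1.29, adjusted p = 0.577) and −0.90 for NDEA+CFT-1 against NDEA (interval −1.39 to −0.41, adjusted p = 0.239). For NDEA+FYT against NDEA it was −0.51 (interval −1.005 to −0.023, adjusted p = 0.9994), and between the teas −0.39 (interval −0.88 to 0.11), where the libraries now overlapped. Without NDEA replicate 1 the scaled NDEA mean of Nfkbia was still 1.73 times the Control mean, and the log2 differences were 0.74 from Control and −0.84 for NDEA+CFT-1 from NDEA. Over all fits that left out 1 library, on either scale, the difference of NDEA from Control ran from 0.69 to 1.36 and that of NDEA+CFT-1 from NDEA from −1.43 to −0.77.

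Nfkb1, the subunit gene, differed less. Its deposited levels were 6.17, 6.77 and 5.21 FPKM in Control (mean 6.05 ± 0.786, SD, n = 3) and 15.2, 6.82 and 7.29 in NDEA (9.77 ± 4.70). They were 6.46, 4.24 and 7.23 in NDEA+CFT-1 (5.98 ± 1.55) and 9.03, 7.45 and 7.53 in NDEA+FYT (8.002 ± 0.889). All NDEA libraries were above all Control libraries, but the lowest NDEA value exceeded the highest Control value by little. The log2 difference from Control was 0.53 (interval −0.060 to 1.13, adjusted p = 0.524) as deposited and 0.27 (interval −0.11 to 0.66, adjusted p = 0.593) after scaling. Without NDEA replicate 1 the scaled difference was 0.091, and the NDEA mean was 1.07 times the Control mean. NDEA+CFT-1 against NDEA gave −0.57 as deposited (interval −1.16 to 0.025) and −0.33 after scaling (interval −0.71 to 0.052), and −0.23 and −0.15 without NDEA replicate 1. The difference of NDEA+FYT from NDEA was −0.18 (interval −0.77 to 0.41) and −0.14 after scaling (interval −0.52 to 0.24), and changed sign, to 0.16 and 0.048, when NDEA replicate 1 was left out.

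Within a library, the ratio of Nfkbia to Nfkb1 does not depend on the scaling. It was 5.44, 4.27 and 4.00 in Control, 5.30, 5.91 and 8.67 in NDEA, 4.64, 6.01 and 3.11 in NDEA+CFT-1, and 4.27, 4.18 and 6.96 in NDEA+FYT. The mean ratio was highest in NDEA (6.62 ± 1.80, SD, n = 3, against 4.57 ± 0.767 in Control), with overlap between all groups. The ratio of Nfkbia to Cd68, also free of the scaling, was 1.77, 5.14 and 4.82 in NDEA, and NDEA replicate 1 was the lowest library. Its mean was 3.91 in NDEA, 2.29 in Control, 2.71 in NDEA+CFT-1 and highest in NDEA+FYT, at 4.17.

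Tlr4, the receptor gene, was low in every liver. It measured 0.447, 0.524 and 0.400 FPKM in Control and 1.45, 0.406 and 0.347 in NDEA. With tea it measured 0.524, 0.198 and 0.396 in NDEA+CFT-1 and 0.463, 0.338 and 0.363 in NDEA+FYT. NDEA replicate 1 was 2.76 times the next highest library, from 75 fragments, and the other 2 NDEA libraries lay within or below the Control range. An exact permutation test over the 20 assignments of 6 libraries, two-sided with a smallest possible p of 0.1, gave p = 0.9 for NDEA against Control as deposited and p = 1 after scaling. The same exact test gave p = 0.5 for NDEA+CFT-1 against NDEA on both scales. For NDEA+FYT against NDEA the exact p was 0.6 as deposited and 0.3 scaled, and between the teas it was 1 as deposited and 0.9 scaled. The difference of the log2 means of NDEA and Control was 0.20 with all libraries and −0.082 without NDEA replicate 1, and 0.067 and −0.12 after scaling. NDEA+CFT-1 differed from NDEA by −0.29 as deposited and −0.18 scaled, and NDEA+FYT by −0.27 and −0.21. When NDEA replicate 1 was left out these came to −0.011 and 0.0087 for NDEA+CFT-1 and to 0.011 and −0.023 for NDEA+FYT.

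Of the adhesion molecules, Icam1 was the more abundant. Its deposited levels were 13.8, 13.9 and 18.1 FPKM in Control (mean 15.3 ± 2.42, SD, n = 3) and 31.6, 13.7 and 30.2 in NDEA (25.2 ± 9.94). With tea they were 15.7, 14.6 and 17.8 in NDEA+CFT-1 (16.04 ± 1.66) and 23.8, 19.6 and 13.2 in NDEA+FYT (18.9 ± 5.34). As deposited, NDEA replicates 1 and 3 were the highest of the 12 libraries while NDEA replicate 2 lay at the Control level, so the groups overlapped. After scaling, Control replicate 3 (23.4) was second to NDEA replicate 3 (29.7) and above NDEA replicate 1 (22.5). The log2 difference of NDEA from Control was 0.61 (interval −0.041 to 1.26, adjusted p = 0.524), and 0.33 after scaling (interval −0.30 to 0.96). That of NDEA+CFT-1 from NDEA was −0.54 (interval −1.19 to 0.11) and −0.28 after scaling (interval −0.91 to 0.35). For NDEA+FYT from NDEA it was −0.35 (interval −0.996 to 0.30) and −0.30 after scaling (interval −0.93 to 0.32). Without NDEA replicate 1 the NDEA mean of Icam1 was 1.44 rather than 1.65 times the Control mean as deposited, and 1.28 rather than 1.29 times after scaling. Over the fits that left out 1 library, on either scale, the log2 difference of NDEA from Control ran from 0.094 to 0.98. The deposited differences from NDEA were −0.34 for NDEA+CFT-1 and −0.15 for NDEA+FYT without NDEA replicate 1. After scaling they were smallest without NDEA replicate 3, at −0.043 and −0.069.

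Vcam1 was high in one library only. It measured 2.14, 2.00 and 1.65 FPKM in Control (mean 1.93 ± 0.254, SD, n = 3) and 9.62, 1.69 and 2.12 in NDEA (4.48 ± 4.46). It measured 2.00, 1.70 and 1.88 in NDEA+CFT-1 (1.86 ± 0.146) and 1.93, 1.91 and 1.24 in NDEA+FYT (1.70 ± 0.392). NDEA replicate 1 was 4.50 times the next highest library as deposited and 3.15 times after scaling, and the other 11 libraries spanned 1.24 to 2.14 FPKM. The NDEA mean was 2.32 times the Control mean with it and 0.989 times without it, and 1.70 and 0.910 times after scaling. The log2 difference was 0.61 (interval −0.27 to 1.498, adjusted p = 0.540) with all libraries and −0.0104 without NDEA replicate 1, and after scaling 0.39 (interval −0.31 to 1.08) and −0.093. For NDEA+CFT-1 against NDEA it was −0.64 (interval −1.53 to 0.24) and for NDEA+FYT against NDEA −0.74 (interval −1.62 to 0.14), and without that library these were −0.021 and −0.12. The scaled differences were −0.43 (interval −1.13 to 0.27) for NDEA+CFT-1 and −0.67 (interval −1.37 to 0.029) for NDEA+FYT, and without NDEA replicate 1 the former changed sign, to 0.049, and the latter was −0.19. After scaling, the NDEA+CFT-1 libraries of Vcam1 (1.93 to 2.08) were all above the NDEA+FYT libraries (1.17 to 1.77). The log2 difference was 0.24 (interval −0.46 to 0.94, adjusted p = 0.880 in limma). This interval uses 1 spread over all 4 groups, so NDEA replicate 1 widens it although neither tea group holds that library. The SD of the scaled log2 values was 0.83 in NDEA, 0.036 in NDEA+CFT-1 and 0.20 in NDEA+FYT.

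Ccl2, the chemokine gene, had 0.263, 0.827 and 0.339 FPKM in Control (mean 0.476 ± 0.306, SD, n = 3) and 5.49, 0.870 and 1.23 in NDEA (2.53 ± 2.57). It had 0.931, 0.452 and 1.06 in NDEA+CFT-1 (0.813 ± 0.319) and 2.09, 1.15 and 0.435 in NDEA+FYT (1.22 ± 0.830). The NDEA libraries were all above the Control libraries on both scales, but the exact Poisson intervals of NDEA replicate 2 (15 fragments) and Control replicate 2 (13 fragments) overlapped. The ratio of the means was 5.31 with all libraries and 2.20 without NDEA replicate 1, and 3.93 and 2.06 after scaling. The deposited ratio was 8.40 without Control replicate 2, the highest of the Control libraries. The log2(FPKM + 1) difference, a scale that understates the change of a gene this low, was 1.04 (interval 0.11 to 1.98, adjusted p = 0.524) and 0.87 after scaling, and 0.49 and 0.45 without NDEA replicate 1. Since Ccl2 was in the fit only through the high value of NDEA replicate 1, its interval and p are not read as support. NDEA+CFT-1 differed from NDEA by −0.74 (interval −1.68 to 0.19) and NDEA+FYT from NDEA by −0.50 (interval −1.44 to 0.44). Without NDEA replicate 1 these differences were −0.19 and 0.055. After scaling they were −0.57 (interval −1.36 to 0.21) and −0.43 (interval −1.22 to 0.35), and −0.15 and −0.0088 when that library was left out.

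Il1b overlapped between Control and NDEA. Its levels were 3.93, 2.89 and 1.80 FPKM in Control (mean 2.87 ± 1.07, SD, n = 3) and 5.04, 2.53 and 2.46 in NDEA (3.34 ± 1.47). With tea they were 1.504, 2.74 and 1.65 in NDEA+CFT-1 (1.96 ± 0.675) and 3.11, 2.79 and 3.24 in NDEA+FYT (3.05 ± 0.231). The Control livers alone spanned more than the distance between the Control and NDEA means. The log2 difference of NDEA from Control was 0.15 (interval −0.44 to 0.75) as deposited and −0.064 (interval −0.56 to 0.44) after scaling, a change of sign. It was −0.11 as deposited and −0.19 scaled when NDEA replicate 1 was left out. NDEA+CFT-1 differed from NDEA by −0.52 (interval −1.12 to 0.073, adjusted p = 0.441), and by −0.31 after scaling (interval −0.81 to 0.19). These were −0.26 as deposited and −0.18 scaled without NDEA replicate 1. NDEA+FYT differed from NDEA by −0.054 (interval −0.65 to 0.54) and by −0.012 after scaling, and by 0.21 and 0.12 without that library. NDEA+CFT-1 was the lowest group on both scales. Its libraries were all below those of NDEA+FYT as deposited, by −0.47 (interval −1.07 to 0.13, adjusted p = 0.896), and overlapped with them after scaling, with a difference of −0.30 (interval −0.80 to 0.20).

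Cd68, the macrophage gene, measured 15.6, 13.3 and 8.15 FPKM in Control (mean 12.4 ± 3.83, SD, n = 3) and 45.4, 7.84 and 13.1 in NDEA (22.1 ± 20.3). It measured 9.78, 10.7 and 8.33 in NDEA+CFT-1 (9.61 ± 1.21) and 8.96, 8.60 and 11.5 in NDEA+FYT (9.67 ± 1.56). NDEA replicate 1 was 2.91 times the next highest library as deposited and 2.04 times after scaling. With all libraries the NDEA mean was 1.79 times the Control mean, and without NDEA replicate 1 it was 0.847 times. After scaling these ratios were 1.34 and 0.790. The log2 difference from Control accordingly turned from 0.47 (interval −0.56 to 1.49, adjusted p = 0.653) to −0.21 as deposited, and from 0.20 (interval −0.64 to 1.04) to −0.33 after scaling. The level of Cd68 was thus high in the same library in which Vcam1, Ccl2 and Tlr4 were high, and the part of macrophage content in those results was not tested. For NDEA+CFT-1 and NDEA+FYT against NDEA the log2 differences of Cd68 were −0.77 (interval −1.79 to 0.26) and −0.76 (interval −1.79 to 0.26), and −0.081 and −0.076 without NDEA replicate 1. After scaling they were −0.51 (interval −1.35 to 0.33) and −0.71 (interval −1.55 to 0.13). Leaving out NDEA replicate 1 turned the scaled difference of NDEA+CFT-1 to 0.017 and left that of NDEA+FYT at −0.19.

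**Figure D2:**
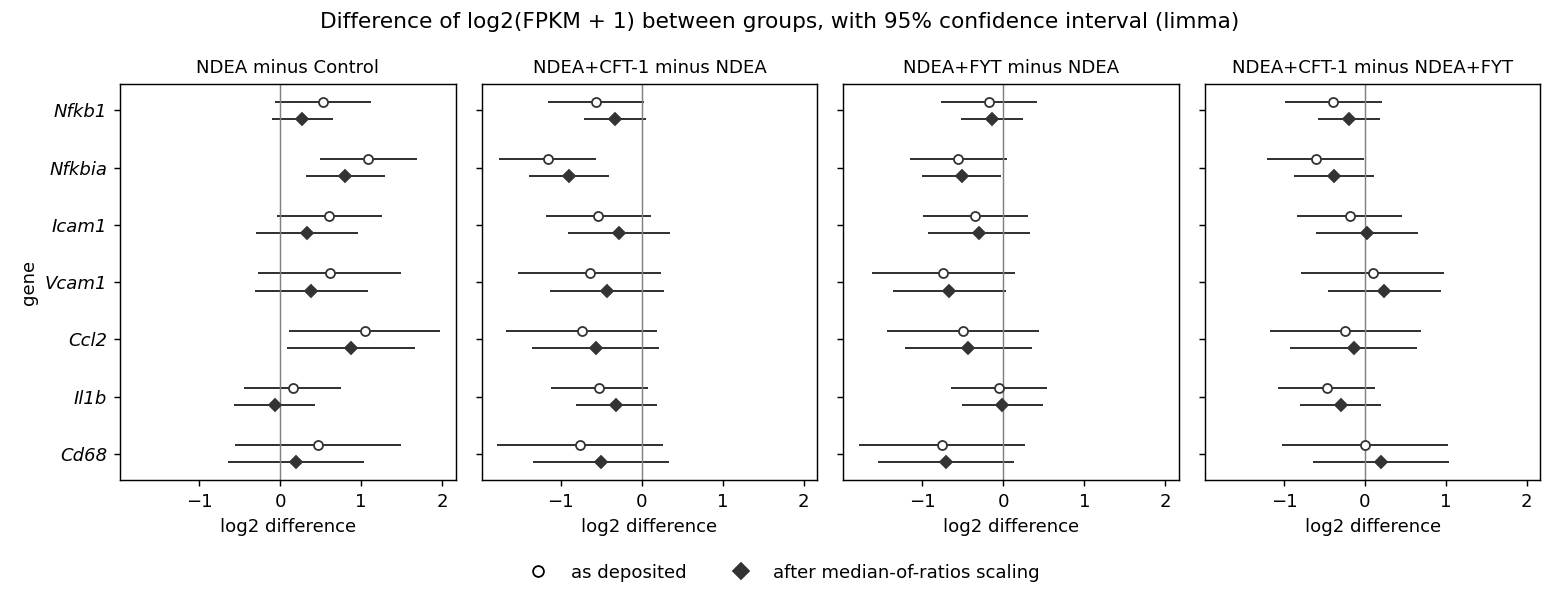
Differences of log2(FPKM + 1) (horizontal axes) between groups for the 7 genes that passed the limit on low values, with 95% confidence intervals from limma. Open circles are deposited values and filled diamonds scaled values. In NDEA minus Control the interval of Nfkbia runs from 0.49 to 1.69 as deposited, and that of Ccl2, which was in the fit only through NDEA replicate 1, from 0.11 to 1.98.

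No gene of the 7 that passed the limit was called at an adjusted p under 0.05 in any of the 4 comparisons or in the test over the 4 groups, on either scale. The background was the same, since 0% of the 11854 genes tested were called in each. The counts that follow leave out Ccl2, which was in the fit only through its high level in NDEA replicate 1, and cover the other 6 genes, a choice made after the data were seen. Calls on them appeared under 1 alternative alone, library weights added after the data were seen, whose estimate did not converge: 2 of 6 (Nfkbia and Icam1) for NDEA against Control beside 1613 of all genes, and 4 of 6 (Nfkbia, Icam1, Il1b and Cd68) for NDEA+CFT-1 against NDEA beside 4352. At an unadjusted p under 0.05, 1 of 6 (Nfkbia) passed for NDEA against Control on both scales, beside 8.70% of all genes tested as deposited and 8.13% after scaling. Nfkbia alone (1 of 6) passed for NDEA+CFT-1 against NDEA, beside 12.6% as deposited and 15.1% scaled. For NDEA+FYT against NDEA it was 0 of 6 beside 1.48% as deposited, and 1 of 6 (Nfkbia) beside 1.58% scaled. Without NDEA replicate 1 the count stayed at 1 of 6 (Nfkbia) on both scales for NDEA and for NDEA+CFT-1, and was 0 of 6 on both scales for NDEA+FYT. The share of all genes at this level was then 3.14% as deposited and 3.75% scaled for NDEA against Control, 8.94% and 11.2% for NDEA+CFT-1 against NDEA, and 2.29% and 1.63% for NDEA+FYT against NDEA. Between the teas it was 1 of 6 (Nfkbia) beside 5.42% as deposited, and 0 of 6 beside 6.11% scaled. In the test over the 4 groups it was 1 of 6 (Nfkbia) on both scales, beside 6.22% and 6.84%.

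All 6 genes had higher means in NDEA than in Control as deposited, with a median log2 difference of 0.57, while the median of all genes tested was 0.20. After scaling 5 of 6 had higher means, with a median of 0.30 beside −0.039 for all genes. Without NDEA replicate 1, 3 of 6 had higher means on either scale, and the medians were 0.094 as deposited and −0.0013 scaled, beside 0.083 and −0.019 for all genes. In NDEA+CFT-1 all 6 had lower means than in NDEA on both scales, with medians of −0.61 as deposited and −0.38 scaled beside −0.16 and 0.054 for all genes. The medians without that library were −0.25 with 6 of 6 lower as deposited, and −0.16 with 4 of 6 lower after scaling, beside −0.048 and 0.036 for all genes. In NDEA+FYT all 6 had lower means than in NDEA too, with medians of −0.45 and −0.41 beside −0.031 and 0.0058 for all genes. Those medians were −0.096 and −0.19 without NDEA replicate 1, with 4 of 6 lower on each scale, beside 0.096 and −0.0058 for all genes. These 3 comparisons share the NDEA libraries, so their directions are not separate evidence. Between the teas, where the differences themselves do not involve the NDEA libraries, the median was −0.29 as deposited and −0.084 scaled. The medians for all genes were −0.14 and 0.039.

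All NDEA libraries lay above all Control libraries for 2 of the 6 genes (Nfkb1 and Nfkbia) on both scales, beside 10.8% of all genes as deposited and 5.11% after scaling. All NDEA+CFT-1 libraries lay below all NDEA libraries for Nfkbia alone, beside 14.1% as deposited and 8.91% scaled. None of the 6 had all NDEA+FYT libraries below NDEA, beside 2.03% and 3.03% of genes. For 3 of 6 (Nfkb1, Nfkbia and Il1b) all NDEA+CFT-1 libraries lay below NDEA+FYT as deposited, beside 18.9% of genes. After scaling this held for 0 of 6 beside 8.30%, and the opposite held for 1 of 6 (Vcam1) beside 12.6%.

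**Figure D3:**
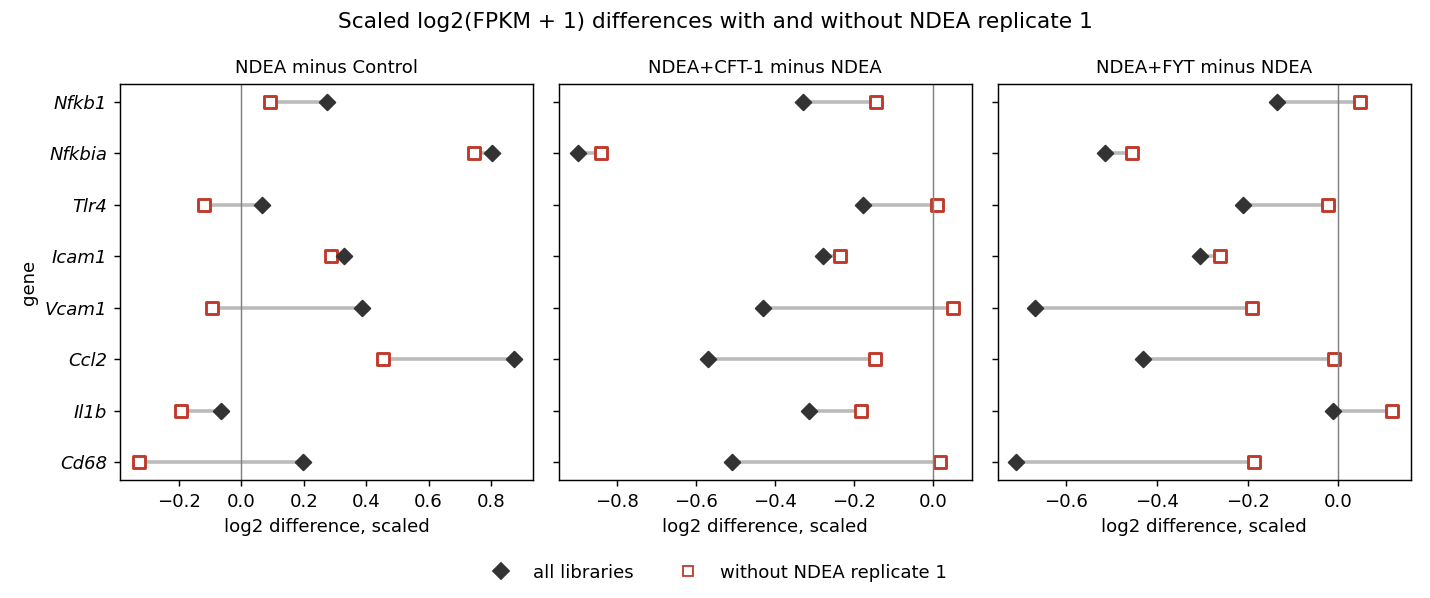
Scaled log2(FPKM + 1) differences (horizontal axes, a separate range in each panel) of the 8 genes with all libraries (filled diamonds) and without NDEA replicate 1 (open squares). The squares of Nfkbia (0.74 from Control) and Icam1 stay close to the diamonds, whereas those of Vcam1 and Cd68 move across 0 in the first 2 panels.

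Over 12 libraries the scaled log2 levels of the 7 genes were positively correlated in 20 of 21 pairs, with r from −0.14 to 0.86. Without NDEA replicate 1, over 11 libraries, this held for 11 of 21 pairs, with r from −0.62 to 0.62. These pairs include those of Ccl2, which was in the fit only through NDEA replicate 1. The share of positive pairs over all genes was not measured. Among the 7 genes Ccl2 was most like Nfkb1 over scaled log2 values (Pearson r = 0.86, Spearman rho = 0.74, n = 12). Nfkb1 ranked 87 of 11853 other genes in likeness to Ccl2, and Ccl2 ranked 50 in likeness to Nfkb1. These ranks were 210 and 962 without NDEA replicate 1, through which alone Ccl2 was in the fit. Vcam1 was, among the 7 genes, most like Cd68 (r = 0.85, rho = 0.71), which ranked 132 of 11853 other genes in likeness to it. These points share NDEA replicate 1, where all 4 of these genes were highest. Over the other 11 libraries r was 0.62 for Ccl2 with Nfkb1 and 0.40 for Vcam1 with Cd68. Cd68 then ranked 1678 in likeness to Vcam1, and Icam1 (0.44) was above it. Cd68 was then negatively correlated with Ccl2 (−0.62) and with Nfkb1 (−0.58), and among the 7 genes Il1b stayed most like Cd68 (0.55). Nfkbia had r with the other members, without that library, from −0.36 (Vcam1) to 0.28 (Il1b). The correlations are descriptions of these livers and were not tested.

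**Figure D4:**
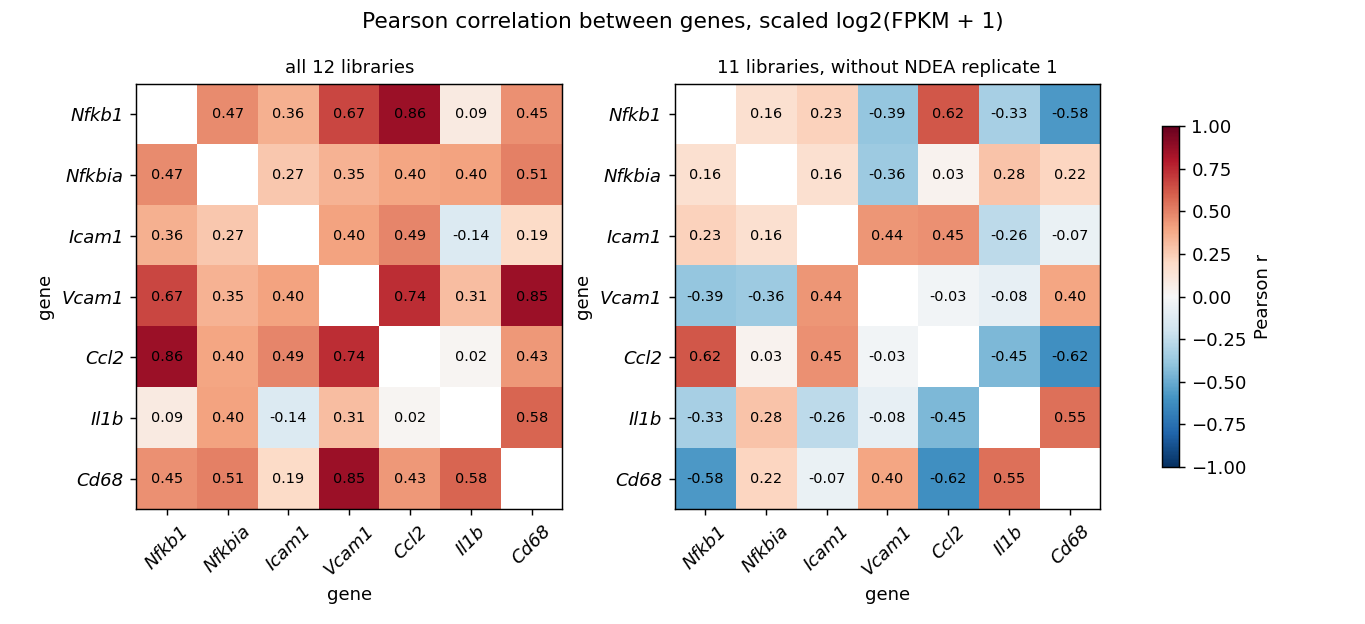
Pearson r between scaled log2(FPKM + 1) values of the 7 genes (rows and columns), over all 12 libraries and over 11 without NDEA replicate 1, with color from −1 to 1. The high values around Vcam1, such as 0.85 with Cd68, fall without that library. The value of Ccl2 with Nfkb1 falls from 0.86 to 0.62.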

How the data were processed

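Liver RNA of 12 rats was sequenced as paired-end reads. According to the study's methods and the submitters' processing notes, the authors trimmed reads with Trimmomatic, mapped them with HISAT2 (build Rnor_6.0), discarded PCR duplicates, used HTSeq 0.6.1 to count the reads that mapped to one place and deposited FPKM values, 1 column per library. Removal of duplicates lowers the level of abundant transcripts most. Strand use in counting is not given in the sources used here.

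FPKM values of the 11854 genes with a mean of at least 1 were analysed as log2(FPKM + 1) with limma 3.58.1 in R 4.3.3 (all 4 groups in 1 fit, eBayes with trend, Benjamini-Hochberg adjustment over these genes, threshold 0.05). The intervals and p of every comparison, the teas included, used a spread estimated over all 4 groups. For scaling, values were divided by median-of-ratios factors over 15742 genes above 0 in every library. Tlr4, below the limit, was tested by exact permutation. Whole fragments were recovered for 100% of the 11854 genes from the FPKM steps. The tolerance was 0.01, and wider in proportion to the count for abundant genes, where a whole number is found more easily. A count model of the recovered fragments (limma-voom) was added after seeing the data, as were library weights. The fit was tested on simulated data.

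The members, lists and tests were chosen with earlier results of these data known. The genes named are the 8 members. Other pathway genes, cell type markers (hepatocyte genes included) and genes most alike over the whole table were not analysed here, since the sources used here do not pair the Ensembl IDs with symbols; the names of the members came with their IDs. The 3 livers of a group were taken as replicates. Alternatives were a pseudocount of 0.1, no limit or a mean FPKM of at least 5, scaling, eBayes without trend, a fit to the compared groups alone, a block for the replicate number, and each library left out. Figures were drawn with matplotlib 3.10.9.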

Additional observations from a re-analysis of the deposited data

How the results depend on the processing

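No member was called under the alternatives named with the methods, nor with limma-voom on the recovered fragments. Weights per library, added after seeing the data, were estimated in 2 ways. Gene by gene, NDEA replicate 1 had the lowest weight (0.138), followed by NDEA+CFT-1 replicate 2 (0.234) and Control replicate 3 (0.358). With these weights 0 members were called, beside 19 genes in all for NDEA+CFT-1 against NDEA and 1 between the teas. The smallest adjusted p of a member was that of Nfkbia (0.0718 in limma, NDEA+CFT-1 against NDEA). By REML the estimate stopped before it converged and put 13.6 on NDEA replicate 3 and 0.106 on NDEA replicate 1, so that 1 liver nearly stood for its group. Under those weights 3 members were called for NDEA against Control, 4 for NDEA+CFT-1 against NDEA, 2 for NDEA+FYT against NDEA, 1 between the teas and 5 over the 4 groups, with Ccl2 among the 3 and among the 5. Of the 11854 genes tested, 1613, 4352, 730, 199 and 5295 were called in these 5 tests. For Nfkbia the adjusted p was 0.00768 for NDEA against Control and 0.000406 for NDEA+CFT-1 against NDEA.

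Of 32 differences (8 genes in 4 comparisons), 16 kept their sign on each scale when any 1 library was left out, all 4 of Nfkbia among them. The other ranges follow, with the scaled one after "scaled". For NDEA against Control they were −0.082 to 0.35, scaled −0.12 to 0.18 (Tlr4), −0.0104 to 0.98, scaled −0.093 to 0.67 (Vcam1), −0.11 to 0.35, scaled −0.20 to 0.095 (Il1b), and −0.21 to 0.98, scaled −0.33 to 0.61 (Cd68). For NDEA+CFT-1 against NDEA they were scaled −0.29 to 0.0087 (Tlr4), scaled −0.71 to 0.049 (Vcam1) and scaled −0.93 to 0.017 (Cd68). For NDEA+FYT against NDEA they were −0.37 to 0.16, scaled −0.24 to 0.048 (Nfkb1), −0.42 to 0.011 (Tlr4), −0.84 to 0.055 (Ccl2), and −0.19 to 0.21, scaled −0.095 to 0.12 (Il1b). Between the teas they were −0.10 to 0.073, scaled −0.037 to 0.11 (Tlr4), scaled −0.18 to 0.19 (Icam1), −0.032 to 0.16 (Vcam1), −0.52 to 0.030, scaled −0.40 to 0.11 (Ccl2), and −0.080 to 0.11 (Cd68).

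Scaling turned 4 signs: Il1b for NDEA against Control (−0.064), and between the teas Tlr4 (0.032), Icam1 (0.025) and Cd68 (0.20). Weights turned Nfkb1 for NDEA+FYT against NDEA (0.093 gene by gene, 0.11 by REML), Il1b for NDEA against Control (−0.29 and −0.39) and for NDEA+FYT against NDEA (0.17 and 0.20), Cd68 for NDEA against Control (−0.16 and −0.14) and, by REML, Cd68 between the teas (0.028). The cause was not tested.

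The replicate numbers were not taken as pairing the livers. Same-numbered deviations correlated at −0.47 to 0.28, with 7 of 18 over 0.1, among them all 3 of Control with NDEA+CFT-1, groups not compared here; in none of the 4 comparisons were all 3 over 0.1. With the number as a replicate block 0 members were called in the 4 comparisons and over the 4 groups. The block leaves every group difference as it was by construction in this balanced design, so signs say nothing here. Depth limits Ccl2 and Tlr4 most, with 5 to 71 and 14 to 75 fragments.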
